A study of Homo sapiens with 9 samples.

Results

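The samples compared here were 6 libraries of SKNO-1, a line grown from a human acute myeloid leukaemia with the AML1-ETO (RUNX1-RUNX1T1) fusion protein, and they differed in the number that ends their labels. The 3 samples numbered 25 were set against the 3 numbered 13, out of 9 samples in the series, and the 3 numbered 1 were left out of the test. Each number occurred 1 time in each of 3 groups, namely EV, which the study describes as a control shRNA and the labels do not spell out, and SH2 and SH3, which are 2 shRNAs against ASXL2. The labels do not say what the numbers stand for, so they may mark a culture, a harvest or a run, and the study's methods speak only of biological replicates. All 6 samples share the cell line, the fusion and, per the study's methods, a medium with 20% fetal calf serum and GM-CSF, and no allele, drug or time was labelled. Whether the cells of a group came from a single transduced pool is not given in the sources used here.

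The abundance of messenger RNA was read as CPM, the count of a gene divided by the library's TMM-scaled total times 1e6. With 1 RefSeq row per gene the libraries held 27714431 to 32648040 counts, and 3 counts, the smallest level taken as visible for a gene with none, came to between 0.0931 and 0.109 CPM. Such limits cover counting error only. KIT (239 to 378 CPM), MPO (6414 to 9779.7 CPM) and RUNX1T1 (111 to 139 CPM) were present in all 6 samples, while the progenitor marker CD34 lay at 0.0685 to 0.310 CPM. Of the other cell types checked, T cell markers had at most 3 counts and epithelial markers at most 1 count in any sample, and the haemoglobin genes HBB and HBA1 had none, although KLF1 (5.72 to 8.43 CPM) and EPOR (6.05 to 7.98 CPM) of the same erythroid list were present. The summed markers of other blood lineages were present as well: B cell 57.3 to 66.4 CPM, megakaryocyte 59.1 to 113 CPM, monocyte 59.7 to 82.5 CPM and neutrophil 125 to 221 CPM over the 6 samples. ASXL2 was lower in every shRNA sample than in EV: it was at 68.4 CPM in EV, 36.4 in SH2 and 29.2 in SH3 among samples numbered 13, and at 74.9, 36.5 and 41.2 CPM among those numbered 25. Its difference between the numbers did not pass (log2 difference 0.21, SE 0.08, edgeR adjusted p 0.0814).

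Several of the genes described below belong to circuits known to answer within minutes to hours to changes outside the cell. Growth factors and cytokines such as GM-CSF act through JAK2 and STAT5 and through the RAS-ERK cascade; the latter drives immediate early genes such as FOS and EGR1, whose transcripts are made and lost quickly. Free zinc is sensed by the factor MTF1, which switches on the metallothioneins, and shortage of amino acids is sensed through the kinase GCN2 and the factor ATF4. These are background facts, and none of those stimuli was labelled or measured in these samples.

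Of 13884 genes tested with the shRNA group as a block, 3029 differed between samples numbered 25 and 13 (21.8%; edgeR quasi-likelihood test, Benjamini-Hochberg adjusted p under 0.05). Of these, 1482 were higher in 25 (10.7% of those tested) and 1547 were lower (11.1%). Most differences were small: the median size among the called genes was 0.31 on the log2 scale, and 57 genes were higher and 69 lower by at least 1. The sign was the same within EV, SH2 and SH3 for 2984 of the called genes (98.5%). In 2541 called genes (83.9%) the 3 samples of a number all lay above the 3 of the other, against 4448 (32.0%) of all genes tested. The call was made on these same 6 samples and favours such genes, so both shares are a description only. Counts of the lists below stand against the 10.7% higher and 11.1% lower of all genes. Sets that do not overlap among called members stand against the 83.9%. Among the 3471 genes of lowest level (mean under 5.28 CPM) 4.49% were higher and 7.87% lower, against 12.9% and 11.2% of the 3471 genes of highest level (mean over 74.5 CPM). The median over all genes was -0.0026, so the scaling placed the bulk of genes at no difference.

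**Figure D1:**
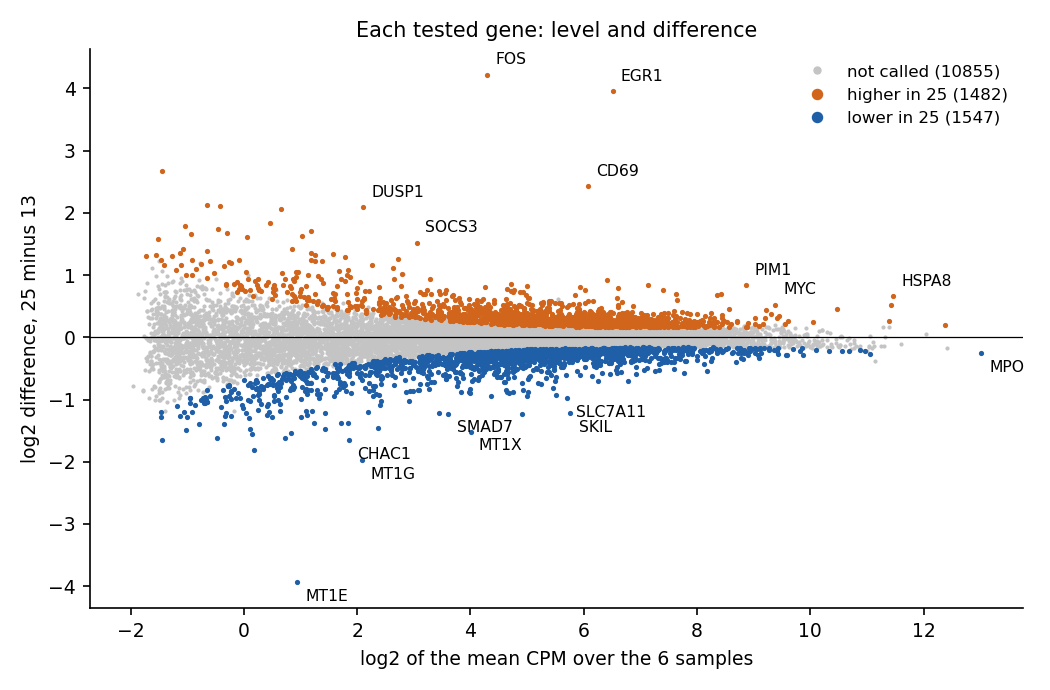
Mean level and difference of each of the 13884 genes tested. The horizontal axis is the log2 of the mean CPM over the 6 samples and the vertical axis the log2 difference, 25 minus 13; orange points are the 1482 genes higher in 25, blue points the 1547 lower, grey points were not called. FOS and EGR1 lie near 4 at the top, MT1E near -4 at the bottom.

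In a principal component analysis of the 6 samples, the first component held 40.8% of the variance and parted the samples numbered 13 (scores of -18.4 to -16.0) from those numbered 25 (16.7 to 17.9). The second, with 23.0%, held EV (21.5 and 12.1) apart from the shRNA samples (-16.3 to -2.15). The difference between 25 and 13 was made without shared samples in each group, and across the 13884 genes it correlated between EV and SH2 (Pearson 0.529, Spearman 0.553), EV and SH3 (0.406 and 0.450) and SH2 and SH3 (0.481 and 0.477). These correlations run over genes, which are not independent, and are given as a description.

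**Figure D2:**
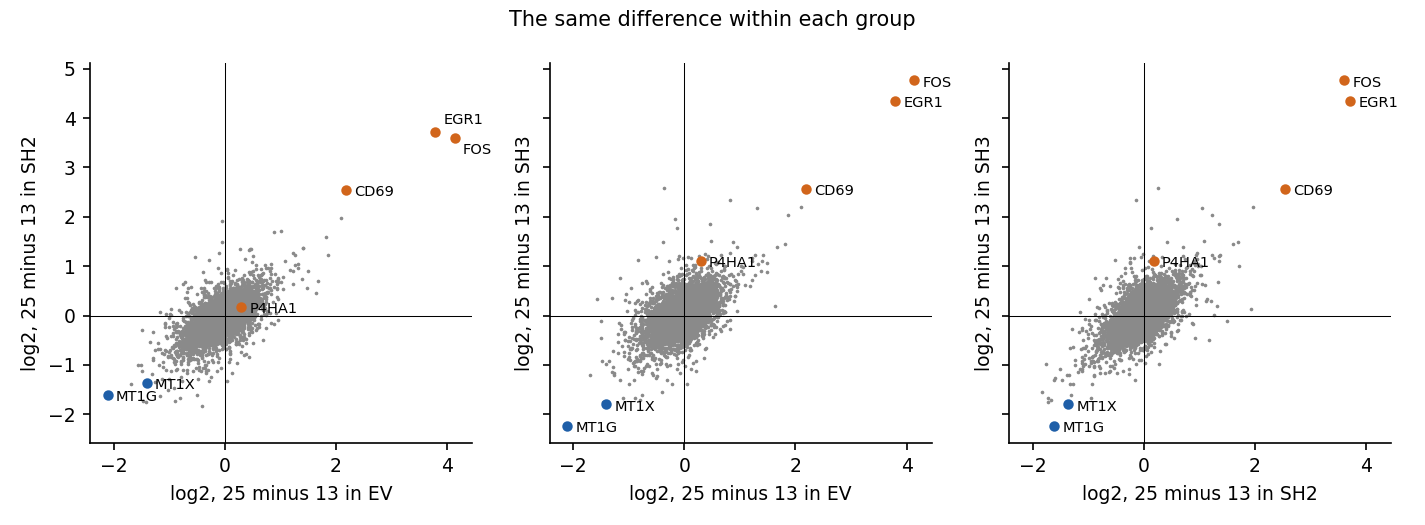
Log2 difference between the samples numbered 25 and 13 within EV, SH2 and SH3, 1 panel for each pair of groups. Each grey point is a gene with a mean of at least 2 CPM; FOS, EGR1 and CD69 lie at the upper right and MT1G and MT1X at the lower left of every panel, whereas P4HA1 lies at 1.11 in SH3, 0.29 in EV and 0.18 in SH2.

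FOS and EGR1, both immediate early genes, had the largest higher differences of all genes tested. FOS (NM_005252; chromosome 14, 75745529 to 75748933, plus strand, GRCh37), a subunit of the AP-1 transcription factor, was at 1.78, 2.02 and 2.02 CPM in EV, SH2 and SH3 numbered 13 and at 31.7, 24.7 and 55.2 CPM in those numbered 25. The log2 difference was 4.22 (SE 0.15, edgeR adjusted p 1.12e-10). EGR1 (NM_001964; chromosome 5, 137801168 to 137804992, plus strand, GRCh37), a zinc finger factor induced by ERK signalling, went from 11.8, 10.7 and 10.2 CPM to 163, 141 and 209 CPM, which is 3.96 on the log2 scale with an SE of 0.10 (edgeR adjusted p 2.83e-12). In each of these genes the lowest sample numbered 25 was over 10-fold above the highest numbered 13. No sample of one number overlapped with the other. DUSP1, a phosphatase that switches off MAP kinases, stood at 1.40 to 2.05 CPM in 13 and 6.35 to 8.06 CPM in 25. FOSB, another AP-1 subunit, was at 2.84, 3.94 and 4.72 CPM against 9.10, 6.46 and 12.5 CPM, and CD69, an early surface marker of activated leukocytes that is no member of the list, was at 25.2, 19.5 and 18.9 CPM against 115, 113 and 112 CPM (log2 difference 2.43, SE 0.08, edgeR adjusted p 4.21e-11).

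Of 23 immediate early genes tested, 13 were higher in 25 and 4 lower, with a median log2 difference of 0.26. The rest of the higher set differed less. CYR61, a secreted matrix protein, differed by 1.11, KLF4 by 0.79, IER2 by 0.63, JUNB by 0.57, JUN by 0.47, MYC by 0.52, FOSL1 by 0.37 and KLF6 by 0.26. With all 9 samples in the fit 8 members were higher and 1 lower, and 9 and 2 without the block. The members that were lower were NR4A3 (-1.64), ATF3 (-0.95), BTG2 (-0.65) and FOSL2 (-0.36); ATF3 and BTG2 are also targets of ATF4 and p53, in that order. SRF, the factor that binds the CArG box of several of these promoters, was at 87.4 to 92.1 CPM in 13 and 96.4 to 104 CPM in 25 (log2 difference 0.18, edgeR adjusted p 0.03). NR4A3 rested on few reads, at 0.347 to 0.891 CPM in 13 and 0.109 to 0.244 CPM in 25.

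The EGR1 promoter is shown because this gene had the smallest p value of all genes and its CArG boxes are the classic site of SRF binding. Sequences are the 250 bases before the RefSeq start (GRCh38.p14), written 5′ to 3′ on the gene's strand, and capitals mark the 2 CArG boxes.
EGR1 (chr5:138465229-138465478, plus strand): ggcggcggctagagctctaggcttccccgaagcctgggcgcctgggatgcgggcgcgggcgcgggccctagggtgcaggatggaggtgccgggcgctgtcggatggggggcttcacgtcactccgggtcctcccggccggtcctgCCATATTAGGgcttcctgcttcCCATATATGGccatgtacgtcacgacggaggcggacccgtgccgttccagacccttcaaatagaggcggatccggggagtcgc
Of 27305 promoters of this length, 1.14% hold a CArG box on either strand. Among 18 tested immediate early genes with a promoter in the table, EGR1 and SRF itself held any; the FOS promoter held none in this window.

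**Figure D3:**
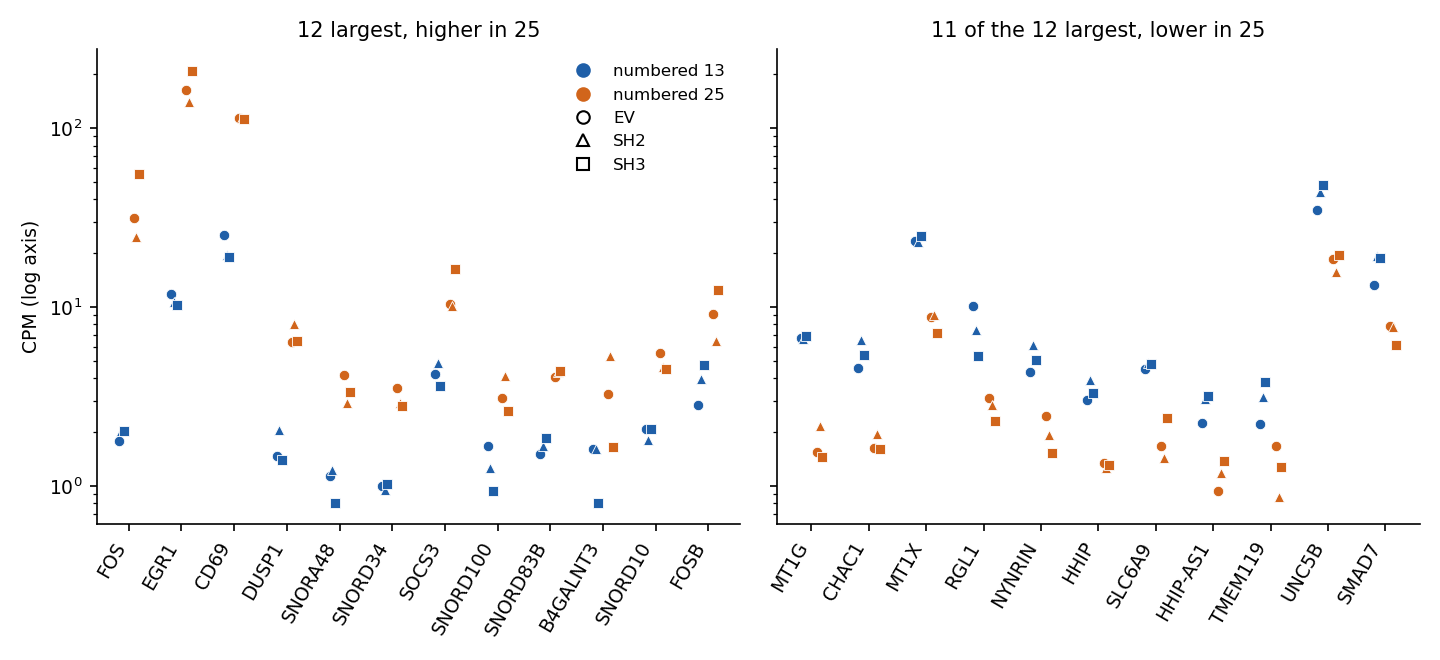
CPM of the 12 genes with the largest higher differences and 11 of the 12 with the largest lower differences (mean of at least 2 CPM, same sign in all groups), on a log axis. Blue symbols are samples numbered 13 and orange symbols those numbered 25, with circles for EV, triangles for SH2 and squares for SH3. The blue and orange sets are apart in every gene shown; B4GALNT3 comes closest, at 1.61 against 1.64 CPM.

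Targets of STAT5, the factor activated below the GM-CSF receptor, were also higher. Of 14 tested, 8 were higher in 25 (57.1%, against 10.7% of all genes) and none lower, with a median log2 difference of 0.38. In all 8 the sets of samples did not overlap, which also held for 83.9% of all called genes. With all 9 samples in the fit 5 were higher. SOCS3, a feedback inhibitor of JAK kinases, was at 4.21, 4.86 and 3.60 CPM in EV, SH2 and SH3 numbered 13 and at 10.5, 10.1 and 16.4 CPM in 25 (log2 difference 1.52, SE 0.16, edgeR adjusted p 3.72e-05). PIM1, a survival kinase, was at 322, 329.6 and 356 CPM in 13 and at 573, 590.2 and 641 CPM in 25 (0.84, SE 0.05, edgeR adjusted p 3.75e-07). The cytokine gene OSM differed by 0.78, IL2RA by 0.56, the feedback inhibitor CISH by 0.46 and PIM2 by 0.30. SOCS2 (-0.12), BCL2L1 (0.09), CCND2 (-0.13) and SOCS1 (-0.21) did not pass.

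Among feedback genes of the ERK cascade, 3 of 9 tested were higher in 25 and none lower. DUSP6, the phosphatase that removes the activating phosphates of ERK, went from 62.7, 53.7 and 60.1 CPM to 103, 109 and 120.3 CPM (log2 difference 0.91, SE 0.07, edgeR adjusted p 1.28e-06). SPRY2, an inhibitor upstream in the cascade, differed by 0.44 and DUSP4 by 0.48, while ETV4 (edgeR adjusted p 0.981) and ETV5 (-0.13) did not pass. Of 17 cytokine receptor genes, 2 were higher and 7 lower. CSF2RB, the shared signalling chain of the GM-CSF, IL-3 and IL-5 receptors, was at 112 to 123 CPM in 13 and 135 to 155 CPM in 25 (log2 difference 0.33, edgeR adjusted p 0.000984), and IL5RA differed by 0.18. The 7 lower genes included IL6R (-0.45), TGFBR2 (-0.40), FLT3 (-0.34) and KIT (-0.33); without the block the list held 1 higher and 1 lower gene, and 3 were lower without the EV samples and 4 without SH2.

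The metallothioneins, small proteins that bind zinc and copper, were lower in 25. This list and that of the zinc transporters were added after members had been seen among the smallest p values. Of 6 metallothioneins tested, 5 were lower in 25 and none higher, with a median log2 difference of -1.57. MT1E was at 3.70, 3.53 and 3.63 CPM in EV, SH2 and SH3 numbered 13 and at 0.234, 0.314 and 0.146 CPM in 25 (-3.94, SE 0.25, edgeR adjusted p 3.75e-07), and the last of these lies close to the visible limit of 0.109 CPM. MT1G went from 6.65 to 6.89 CPM down to 1.46 to 2.16 CPM (-1.97), and MT1F from 2.42 to 2.60 CPM down to 0.702 to 0.978 CPM (-1.62). MT1X was at 23.4, 23.0 and 25.0 CPM against 8.80, 8.97 and 7.18 CPM (-1.52, SE 0.10, edgeR adjusted p 3.33e-07). MT2A differed least among the called members, at 79.9, 88.4 and 88.4 CPM against 50.6, 62.3 and 53.5 CPM (-0.63, SE 0.06). The samples of each number lay close together in these genes, with no overlap between the numbers. MT1L, a pseudogene, was at 0.310 to 0.725 CPM in 13 and 0.301 to 0.693 CPM in 25. The 6 genes lie within a cluster on chromosome 16 (MT2A at 56642496 to 56643409 and MT1X at 56716382 to 56718108, GRCh37) and are near copies of each other, so the split of reads among them is uncertain.

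Zinc transporters moved in both directions. SLC30A1, which exports zinc from the cytosol and is itself a target of MTF1, was lower, at 43.6, 44.6 and 37.5 CPM in 13 against 24.04, 21.2 and 20.3 CPM in 25 (log2 difference -0.94, SE 0.07, edgeR adjusted p 1.31e-06). SLC39A10, an importer at the cell surface, was higher, at 21.1, 23.4 and 24.7 CPM against 41.1, 37.6 and 44.5 CPM (0.83, SE 0.07, edgeR adjusted p 4.01e-06). Of the 17 genes tested in this list, which includes MTF1, 3 were higher (SLC39A10, SLC39A14 at 0.32 and SLC39A6 at 0.23) and 2 lower (SLC30A1 and SLC39A3 at -0.21). MTF1 itself did not pass (0.14, edgeR adjusted p 0.158).

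The promoters of MT1X, MT2A and SLC30A1 are shown for the metal response element, the site that MTF1 binds. Those of MT1E, MT1G and MT1F were not at hand, and a response to MTF1 was not measured. Capitals mark each match to TGCACNC or TGCGCNC on either strand; overlapping matches run together.
MT1X (chr16:56682220-56682469, plus strand): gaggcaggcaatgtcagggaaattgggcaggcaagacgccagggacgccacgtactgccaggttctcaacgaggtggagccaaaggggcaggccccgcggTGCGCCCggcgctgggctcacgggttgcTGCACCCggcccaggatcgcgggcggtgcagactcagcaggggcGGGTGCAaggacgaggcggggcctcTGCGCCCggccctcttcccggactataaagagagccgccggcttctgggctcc
MT2A (chr16:56608334-56608583, plus strand): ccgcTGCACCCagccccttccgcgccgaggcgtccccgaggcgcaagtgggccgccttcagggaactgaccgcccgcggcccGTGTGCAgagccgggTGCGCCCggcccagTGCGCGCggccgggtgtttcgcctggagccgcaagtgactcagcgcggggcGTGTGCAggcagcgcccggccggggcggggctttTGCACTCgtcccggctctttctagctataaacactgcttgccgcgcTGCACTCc
SLC30A1 (chr1:211579162-211579411, minus strand): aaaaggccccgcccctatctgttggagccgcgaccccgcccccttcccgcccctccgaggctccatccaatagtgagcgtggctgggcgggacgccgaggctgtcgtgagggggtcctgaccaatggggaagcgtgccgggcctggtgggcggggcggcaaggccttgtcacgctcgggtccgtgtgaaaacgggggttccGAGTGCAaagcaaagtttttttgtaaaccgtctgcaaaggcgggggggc
The windows hold 4, 7 and 1 matches. Of 27305 promoters, 24.7% hold at least 1 match and 6.51% at least 2. Among the 15 tested zinc genes whose promoter was at hand, 4 held a match (SLC30A1, SLC30A6, SLC39A3 and SLC39A6), and SLC39A10 held none. A match is a description of letters, not evidence of binding.

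**Figure D4:**
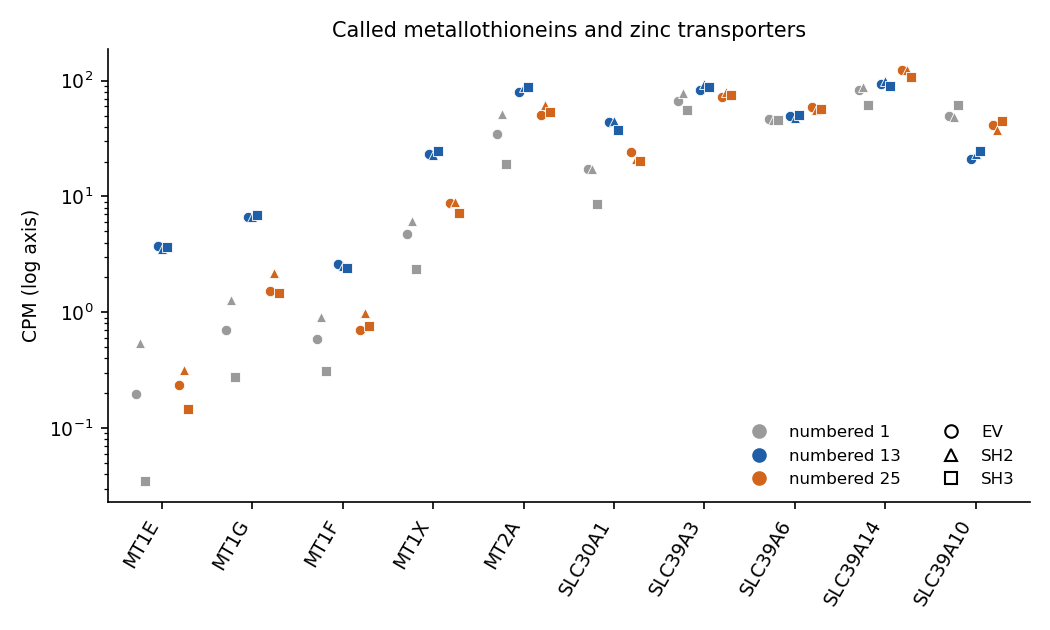
CPM of the 5 called metallothioneins and 5 called zinc transporters in all 9 samples, on a log axis; grey symbols are samples numbered 1, blue 13 and orange 25, with circles for EV, triangles for SH2 and squares for SH3. The blue symbols lie above both other colours in the metallothioneins and SLC30A1, and below both in SLC39A10.

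Genes of the ATF4 response, which raise amino acid synthesis and uptake, were lower in 25. Of 33 tested, 13 were lower (39.4%, against 11.1% of all genes) and none higher, with a median log2 difference of -0.13. The samples did not overlap in any of the 13, which also held for 83.9% of all called genes. CHAC1, which breaks down glutathione, was at 4.56, 6.53 and 5.40 CPM in EV, SH2 and SH3 numbered 13 and at 1.64, 1.96 and 1.60 CPM in 25 (-1.66, SE 0.15, edgeR adjusted p 7.51e-06). SLC7A11, the cystine importer, was at 61.2, 80.7 and 66.6 CPM against 35.4, 34.0 and 35.8 CPM (-0.98, SE 0.08, edgeR adjusted p 2.29e-06). ASNS, asparagine synthetase, went from 40.4 to 51.9 CPM down to 24.4 to 30.7 CPM (-0.73), PSAT1 of serine synthesis differed by -0.52, PHGDH by -0.31, SESN2 by -0.62 and TRIB3 by -0.20. ATF4 transcript itself was at 559 to 617 CPM in 13 and 554 to 597 CPM in 25 (-0.02, edgeR adjusted p 0.843), and its partner DDIT3 did not pass (-0.09). The factor is known to be controlled largely at translation, which these data do not measure. With all 9 samples in the fit 1 gene of the list was lower. SLC6A9, a glycine transporter outside the list, was lower as well, at 4.49 to 4.89 CPM against 1.43 to 2.41 CPM (-1.37).

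The promoters of CHAC1 and ASNS are shown for the C/EBP-ATF element, the composite site through which ATF4 acts. Capitals mark each match to TGATGNAA on either strand; for ASNS the first of its 2 RefSeq starts was used.
CHAC1 (chr15:40953221-40953470, plus strand): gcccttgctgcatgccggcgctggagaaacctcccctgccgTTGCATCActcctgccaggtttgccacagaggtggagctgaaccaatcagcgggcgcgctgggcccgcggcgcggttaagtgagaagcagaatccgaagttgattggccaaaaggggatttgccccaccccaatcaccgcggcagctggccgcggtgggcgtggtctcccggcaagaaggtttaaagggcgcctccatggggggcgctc
ASNS (chr7:97872409-97872658, minus strand): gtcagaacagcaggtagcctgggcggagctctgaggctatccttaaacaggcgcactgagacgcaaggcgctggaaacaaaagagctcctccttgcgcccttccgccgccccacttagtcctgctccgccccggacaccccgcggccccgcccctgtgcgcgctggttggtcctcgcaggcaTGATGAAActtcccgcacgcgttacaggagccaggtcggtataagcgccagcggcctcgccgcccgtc
Each holds 1 match, and 3.19% of 27305 promoters hold at least 1. Among the 20 tested genes of the list whose promoter was at hand, 3 held a match (CHAC1, ASNS and ATF3), and all 3 were among the 9 of them that were called.

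Chaperone genes of the heat shock response were higher in 25. Of 17 tested, 12 were higher (70.6%, against 10.7% of all genes) and none lower, with a median log2 difference of 0.39. In all 12 the samples did not overlap, which also held for 83.9% of all called genes. With all 9 samples in the fit 7 were higher. HSPA8, the constitutive HSP70 of the cytosol, was at 2253, 2096 and 2186 CPM in 13 and at 3482, 3514 and 3348 CPM in 25 (0.66, SE 0.06, edgeR adjusted p 1.45e-05). HSPH1, its exchange factor, went from 241 to 274 CPM up to 401 to 437 CPM (0.69), CHORDC1, an HSP90 partner, from 111 to 134 CPM up to 198 to 227 CPM (0.76), and DNAJB1, an HSP40, from 80.8 to 83.0 CPM up to 117 to 128 CPM (0.57). HSP90AA1 differed by 0.52 (edgeR adjusted p 0.000456). The strongly inducible HSPA1B was low in both sets, at 0.315 to 0.497 CPM and 0.510 to 0.908 CPM, and did not pass. The endoplasmic reticulum counterpart, the unfolded protein response, had 1 gene higher and 1 lower among 20. Of 16 heat shock genes with a promoter in the table, 6 held GAANNTTC, which is found in 5.85% of promoters, and 3 of the 11 called did.

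Sterol synthesis genes were higher in 25, but unequally among the groups. Of 24 genes for cholesterol synthesis and LDL uptake, 13 were higher and none lower. The median log2 difference was 0.24 in the fit and, within the groups, 0.03 in EV, 0.28 in SH2 and 0.39 in SH3; the design holds 1 sample for each group and number, so a difference between groups could not be tested. HMGCS1, the first committed enzyme of the pathway, was at 306, 218 and 234 CPM in EV, SH2 and SH3 numbered 13 and at 378, 369 and 458 CPM in 25 (0.68, SE 0.09, edgeR adjusted p 0.000202). MSMO1 differed by 0.55, STARD4, a sterol carrier, by 0.52 and SQLE by 0.31. With all 9 samples in the fit 1 gene of the list was higher, without the block 6 and without the SH2 samples 8. Of 14 fatty acid synthesis genes 6 were higher (2 without the block or without the SH3 samples, where 1 was lower), among them FASN (0.45), ACLY (0.22) and ELOVL6 (0.32), and none lower. The list of liver X receptor targets had 1 of 7 higher, APOC1 (0.78), and none lower. The sterol element TCACNCCAC was found in 1 of 18 tested sterol genes with a promoter, SREBF2, which was not called, against 0.875% of all promoters.

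Glycolysis and hypoxia genes had list medians of 0.08 and 0.07 within EV, 0.13 and 0.12 within SH2, and 0.29 and 0.33 within SH3, on the log2 scale. Of 22 glycolysis genes 7 were higher and none lower, among them PFKP (0.34), PFKM (0.29), ALDOA (0.26) and LDHA (0.25). Of 20 targets of hypoxia-inducible factors 5 were higher, among them VEGFA, a vessel growth factor, at 151 to 172 CPM in 13 and 231 to 245 CPM in 25 (0.59), and 1 was lower, DDIT4 (-0.89). P4HA1, a collagen hydroxylase, was at 42.1, 42.0 and 48.7 CPM in 13 and at 51.7, 47.5 and 105 CPM in 25. The kinase gene PFKFB4 (5.17, 2.995 and 3.79 CPM against 4.01, 3.60 and 22.6 CPM) and BNIP3 (36.3, 32.1 and 32.3 CPM against 33.0, 35.3 and 110.4 CPM) had the same shape, did not pass, and were picked after their values were seen. In P4HA1, PFKFB4 and BNIP3 the SH3 sample numbered 25 stood above the other 5, which lay close together. Without the SH3 samples, 2 glycolysis genes were higher and 1 lower, and 4 hypoxia targets were higher and 5 lower. Without the block 2 glycolysis genes and 1 hypoxia target were higher, and with all 9 samples in the fit none and 1.

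**Figure D5:**
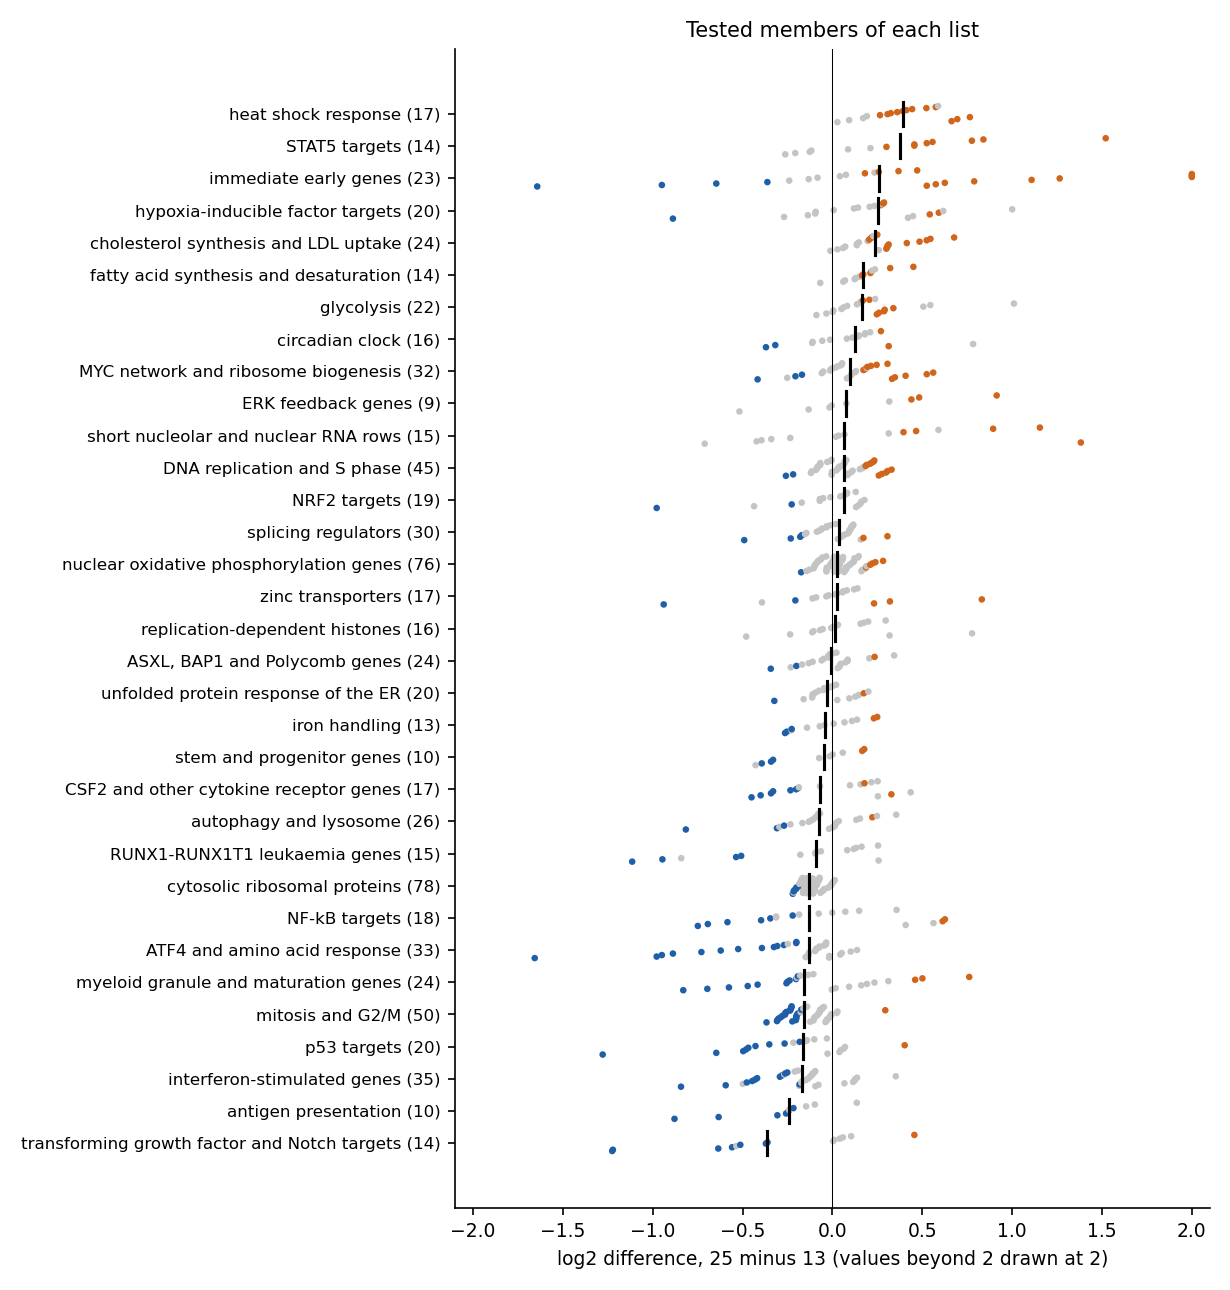
Log2 difference, 25 minus 13, of each tested member of the lists with at least 9 tested genes; the number tested follows the list's name. Orange points were higher in 25, blue points lower, grey points not called, and the black bar is the list's median; values beyond 2 are drawn at 2. Heat shock and STAT5 lists lie farthest to the right and the transforming growth factor and Notch list farthest to the left.

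Of 14 genes of the transforming growth factor and Notch pathways tested, 7 were lower in 25 and 1 higher, and the median log2 difference was -0.37. The difference was positive in 6 of the 14, and 4 were lower without the block or with all 9 samples in the fit. SKIL, a repressor of SMAD proteins that is itself a SMAD target, was at 63.6, 82.7 and 82.6 CPM in EV, SH2 and SH3 numbered 13 and at 31.8, 34.1 and 31.6 CPM in 25 (-1.22, SE 0.07, edgeR adjusted p 2.13e-07). SMAD7, the inhibitory SMAD, was at 13.3, 19.4 and 18.7 CPM against 7.83, 7.79 and 6.16 CPM (-1.23, SE 0.13). SMAD6 differed by -0.56, HES1 by -0.64 and the receptor gene NOTCH1 by -0.37. ID1, which answers to bone morphogenetic proteins and also stands on the STAT5 list, was the member that was higher (0.46).

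NF-kB, interferon and p53 targets were lower more often than higher. Of 18 NF-kB targets 6 were lower and 2 higher: the inhibitor gene NFKBIA went from 52.4, 43.4 and 47.6 CPM to 27.0, 27.9 and 30.3 CPM (-0.75, SE 0.07, edgeR adjusted p 1.45e-05), BIRC3 differed by -0.69, IRF1 by -0.58 and RELB by -0.40, while the chemokine CXCL8 (0.61) and the adhesion molecule ICAM1 (0.63) were higher. Of 35 interferon-stimulated genes 11 were lower and none higher, with a median of -0.17; 5 were lower without the SH2 samples, 6 without the block or with DESeq2, and 4 with all 9 samples in the fit. RSAD2, which makes an antiviral nucleotide, was at 43.5, 40.2 and 32.9 CPM against 25.0, 21.4 and 18.6 CPM (-0.84), and its neighbour CMPK2 differed by -0.59. These neighbours overlap at their ends in the annotation (RSAD2 from 7005688 and CMPK2 to 7006766 on chromosome 2, GRCh37, opposite strands), and the libraries kept no strand. Of 10 antigen presentation genes 6 were lower, among them HLA-DPB1 (-0.88), HLA-DRA (-0.63), CD74 (-0.31) and B2M (-0.22), and the HLA genes may share reads with each other. The median of that list was -0.55 within EV, -0.15 within SH2 and -0.09 within SH3, and without the EV samples none was called, without SH2 or with DESeq2 2, without the block 1 and with all 9 samples in the fit none. Of 20 p53 targets 9 were lower, among them PHLDA3 (1.92, 2.24 and 1.83 CPM against 1.04, 0.733 and 0.693 CPM, -1.28), CCNG1 (-0.50), CDKN1A (-0.48), RRM2B (-0.43) and ZMAT3 (-0.35), and PLK3 was higher (0.40). With all 9 samples in the fit 4 p53 targets and 3 NF-kB targets were lower, and without the block 5 p53 targets.

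Cell cycle genes differed by small amounts. Of 50 genes of mitosis and G2/M, 22 were lower in 25 and 1, CENPI, higher (0.29), with a median log2 difference of -0.16. NEK2, a centrosome kinase, was at 31.5, 34.2 and 33.7 CPM against 25.5, 25.8 and 25.7 CPM (-0.37), CCNB2 differed by -0.31 and KIF2C by -0.29, while MKI67 did not pass (0.02). Without the SH2 samples 6 of the list were lower, without the block 9 and with all 9 samples in the fit 2. Of 45 replication genes 11 were higher and 2 lower, among the former CDC45 (0.30) and MCM10 (0.31), parts of the replicative machinery, at a median of 0.06; 4 were higher without the SH2 samples, 6 without EV or without the block, and 1 with all 9 samples in the fit. None of 16 replication-dependent histone genes was called; their transcripts lack a poly(A) tail and are poorly caught by these libraries. In the MYC network and ribosome biogenesis 11 of 32 were higher and 3 lower; 6 were higher without EV, without SH2 or without the block, and 2 with all 9 samples in the fit. MYC was at 549, 531 and 560.4 CPM in 13 and 774, 791 and 795 CPM in 25 (0.52, SE 0.06, edgeR adjusted p 3.72e-05), POLR3G differed by 0.56 and RRP9 by 0.41, and the MYC antagonist MXD1 by -0.42. Of 78 ribosomal protein genes tested, 3 had a positive difference, and the median log2 difference was small, at -0.13. Within the groups the median was -0.23 in EV, -0.04 in SH2 and -0.11 in SH3. Of the 78, 7 (8.97%, against 11.1% of all genes) were called lower and none higher, with differences of -0.22 to -0.18 in those 7. That count was 0 without EV, 3 without SH2, 4 without SH3, 1 without the block and 0 with all 9 samples in the fit, but 14 with DESeq2 and 15 with limma-voom. Of 76 oxidative phosphorylation genes 5 were higher (6.58%, against 10.7%) and 1 lower, with 13 higher without SH3, 2 without EV, 1 without SH2 and none without the block or with all 9 samples.

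Myeloid genes went in both directions. Of 24 granule and maturation genes 3 were higher and 10 lower. The 3 were the neighbouring serine protease genes of chromosome 19: ELANE at 341, 318 and 298 CPM in 13 and 452, 441 and 424 CPM in 25 (0.46, edgeR adjusted p 7.91e-05), PRTN3 at 85.6 to 111 CPM against 125 to 145 CPM (0.50), and CFD at 43.2 to 56.6 CPM against 71.8 to 98.1 CPM (0.76). They lie between 840999 and 867884 (GRCh37). MPO, the peroxidase of azurophil granules, was lower, at 8357, 8639 and 9779.7 CPM against 7174, 6414 and 9105 CPM (-0.25, SE 0.08, edgeR adjusted p 0.032), and its sets overlapped. RNASE3 (-0.83) and RNASE2 (-0.58), ribonucleases of eosinophils, CST7 (-0.70), CEBPA (-0.47) and CTSG (-0.42) were lower too. RNASE2 was at 66.3, 86.0 and 139 CPM in EV, SH2 and SH3 numbered 13. In 25 it was at 69.4, 44.9 and 77.3 CPM, so it was not lower within EV and its sets overlapped. PRG2, the eosinophil major basic protein and no member of this list, was at 205, 341 and 502 CPM in EV, SH2 and SH3 numbered 13 and at 205, 229 and 247 CPM in 25, so the SH3 sample numbered 13 stood highest and the EV samples were level. The summed CPM of 8 eosinophil markers ran from 368 to 760.0 in 13 and from 375 to 422 in 25, with 4 of 7 tested lower and 1 higher; their part in the granule list was not tested. Without the block or with all 9 samples in the fit 3 granule genes were higher and 1 lower, and without SH2 3 and 5. Of 10 stem and progenitor genes, ERG (-0.39), KIT and FLT3 were lower and GATA2 (0.18) and MYB (0.17) higher. Of 15 genes tied to RUNX1-RUNX1T1 leukaemia 4 were lower, CD48 (-1.11), TRH (-0.95), PRG2 (-0.54) and IGFBP7 (-0.51). TRH, a hormone precursor, was at 26.0, 39.5 and 16.8 CPM against 13.2, 18.0 and 10.5 CPM, lower within each group though the sets overlapped. None of the 4 was called without the block, and neither RUNX1 (0.16, edgeR adjusted p 0.0976) nor RUNX1T1 (-0.10, edgeR adjusted p 0.286) passed.

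The remaining lists were read against the background of 21.8%. Of 26 autophagy and lysosome genes 1 was higher and 3 lower, led by FNIP1, at 52.3 to 61.5 CPM against 30.9 to 33.2 CPM (-0.82). NRF2 targets had none higher and 2 lower of 19, iron genes 2 higher and 3 lower of 13, clock genes 2 and 2 of 16, splicing regulators 2 and 4 of 30, led by CLK1 (-0.49), and ASXL, BAP1 and Polycomb genes 1 and 2 of 24, led by PHC2 (-0.34). Other lower genes with large differences were the netrin receptor UNC5B (34.9, 43.7 and 48.4 CPM against 18.6, 15.7 and 19.5 CPM, -1.23), the RAL exchange factor RGL1 (-1.46), NYNRIN (-1.38), TMEM119 (-1.25), and HHIP, a hedgehog inhibitor (-1.38), with its antisense gene HHIP-AS1 (-1.28), from which it cannot be told apart without strand where they overlap.

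Many rows of small nucleolar RNAs, which guide modification of ribosomal RNA, were higher. Of 394 rows in the files whose symbols begin with SNORA, SNORD or SCARNA, 165 were tested. Of these, 57 were higher in 25 and 6 lower, against 10.7% higher and 11.1% lower of all genes. The median log2 difference was 0.39, and this set was chosen after members were seen. The filter on low counts asked for 0.340 CPM in 3 samples, and 10 of the 165 rows reached it in all samples numbered 25 and in none numbered 13 (none the other way round), so these were tested because they were high in 25. Among the 131 rows that reached that level in all 6 samples 45 were higher and 5 lower, with a median of 0.35, and with no filter 64 of 292 were higher and 7 lower, with a median of 0.33. Of the 12 genes with the largest higher differences 5 were such rows. SNORD34 went from 0.946 to 1.02 CPM up to 2.81 to 3.54 CPM (1.63), and SNORA48 from 0.807 to 1.23 CPM up to 2.90 to 4.15 CPM (1.71). SNORD34 lies within RPL13A, which was at 2008 to 2511 CPM against 1843 to 1959.5 CPM (-0.22, edgeR adjusted p 0.0512). For 62 rows that could be placed within 1 tested gene, the 43 host genes had a median of -0.12, with 3 higher and 9 lower. In a shorter list of nucleolar and nuclear RNA rows, 5 of 15 were higher and none lower. Those 5 (SNORD15B, SNORD104, SNORA33, SNORA63 and SNORA81) are all among the 57 counted above, so they add no further rows. The libraries were poly(A) selected and cut to a size range, per the study's methods. Whether these reads came from mature small RNAs or from longer transcripts was not tested. Nor was it tested whether the sets differed in RNA quality or size selection.

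The samples numbered 1 were not in the test and are given as values. At the metallothioneins they lay beside or beyond 25: MT1X was at 4.74, 6.18 and 2.35 CPM in EV, SH2 and SH3 numbered 1. FOS (4.68, 5.40 and 6.64 CPM), EGR1 (52.5, 55.6 and 69.6 CPM) and CD69 (63.6, 66.2 and 103 CPM) lay between the other numbers, and SKIL lay below both, at 12.1, 11.98 and 17.1 CPM. HSPH1 was at 256, 291 and 159 CPM, near or below 13, and HSPA8 at 2881, 3222 and 2569 CPM, between the others. In P4HA1 (165, 205 and 414 CPM) and HMGCS1 (608, 592 and 1204 CPM) they lay above both. Over the 3029 called genes, the mean of the samples numbered 1 was nearer to 25 in 1000 (33.0%); the samples lay beyond 13 in all 3 groups in 852 genes, between in 283 and beyond 25 in 245.

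The samples were compared for technical measures as well. The 10 genes with most counts held 3.84% to 4.33% of a library. Chi-square per degree of freedom was 8.46 to 21.4 between samples of the same number and 18.5 to 33.1 between numbers, so no 2 samples agreed within sampling noise. Over 12858 genes with a transcript length, the log2 difference had a Spearman correlation of 0.0168 with length and 0.0717 with GC content; the median GC content was 51.3% among genes higher in 25, 47.0% among those lower and 48.5% over all. With 2 residual degrees of freedom, the p values measure how the difference between numbers varied among the groups of these 6 samples only. Since each number holds 1 sample per group, whatever else differed between the numbers cannot be told apart from the comparison itself.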

How the data were processed

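RNA-seq read counts per RefSeq transcript row (48104 rows, 25680 gene symbols) were used as the authors deposited them: raw counts on hg19, with no normalization. Per the paper's methods, RNA with a poly(A) tail was made into unstranded libraries of gel-selected fragments and sequenced on an Illumina HiSeq, and the submitters' processing notes name STAR, featureCounts and DESeq2; the role of each and the versions are not given in the sources used here. The label on RNA extraction describes sorted bone marrow cells and does not match the cell line.

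For each symbol the row with the highest total over all 9 files was kept. Genes were filtered with filterByExpr (minimum count 10, number as the grouping), scaled by TMM and tested with edgeR 4.0.16 (quasi-likelihood, group plus number, 2 residual degrees of freedom) in R 4.3.3, two-sided, with Benjamini-Hochberg adjustment over 13884 genes. Log2 differences are 25 minus 13. Standard errors were worked out from the log2 difference and the F statistic of its test, so they are no separate estimate of spread. DESeq2 1.42.0 and limma 3.58.1 served as alternatives, and the fit was tested on simulated data. Group acted as a block because each group holds 1 sample of each number. Samples 13 and 25 of a group deviated together (correlations of 0.299 in EV, 0.282 in SH2 and 0.168 in SH3), which was looked at after the fit. Positions, lengths and GC content come from GENCODE v44 lifted to GRCh37 (22994 symbols matched), promoters from RefSeq on GRCh38.p14. Named were, by rule, the 12 genes of largest difference per direction (mean of at least 2 CPM, same sign in all groups), the 5 of smallest p, the 5 of highest level and up to 4 called genes per list; other list members were chosen after their values were seen. The comparison, the 33 first lists and the 2 added later were chosen with earlier results of these data known. The samples the study calls biological replicates lie within a group and carry different numbers, so they are what is compared here. Samples of the same number are EV, SH2 and SH3, which differ in shRNA. The p values of the main fit thus measure how the difference between 25 and 13 varied among these groups. They do not measure spread between replicates treated alike. That variation was moderated with information from all genes (12.74 prior degrees of freedom). A replicate block check, other scalings, filters and rows, and the leaving out of each group were run as alternatives. A few genes picked by this rule or on these lists are not reported here.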

Additional observations from a re-analysis of the deposited data

Results flagged for a closer look

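ASXL1, a paralog of the targeted gene, stood out because its difference between samples numbered 25 and 13 had opposite signs among the groups: -0.085 on the log2 scale in EV, -0.14 in SH2 and 0.15 in SH3. From the coefficient of variation fitted over all genes, a difference between 2 samples has an SD of 0.119 on the log2 scale. That fit draws on the disagreement between groups in these same 6 samples, so it cannot say whether the opposite signs are spread between replicates. Over the 6 samples ASXL1 had an edgeR adjusted p of 0.81. The difference between groups was not tested, since each group holds 1 sample of each number.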

How the results depend on the processing

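The count of genes that differed (3029, with 1482 higher and 1547 lower in 25) stayed within 1.5 times under RLE scaling, limma-voom, other filters, summed rows and length and GC offsets. It fell to 1613 (817 higher, 796 lower) with DESeq2, to 833 (393 and 440) with all 9 samples in the fit, to 1249 (626 and 623) without the block, and to 1311 (653 and 658) with the lowest RefSeq row, where 6135 genes could be tested. All 833 and all 1249 were among the 3029, and 1596 of the 1613. Leaving out EV, SH2 or SH3 gave 1704 to 3428 genes (888 to 1718 higher, 816 to 1710 lower), lowest without SH2 and highest without SH3. The difference of ASXL2 (0.21) passed with no filter (0.20), with offsets (0.19) and without EV or SH2, its range being 0.073 to 0.31 over the samples left out. Of 148 named genes, none changed direction where it was called in the main fit or in the alternative. Changes of sign in genes called in neither were not counted, and some alternatives could test only part of the 148. The call was lost by 17 with DESeq2, 71 with all 9 samples, 45 without the block, and 27, 27 and 15 without EV, SH2 and SH3. The causes were not tested. Counts limit the genes of lowest level most, where fewer were called.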
